A study of Homo sapiens with 15 samples.

Results

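The 9 genes described here are PLA2G3, IL21R, FAM213A, NDRG4, CREB3L3, SYNE4, UAP1L1, SHOX2 and PHLDB2, out of 60107 gene identifiers measured. They were picked by name because earlier results of these data had shown them to differ between cells treated with the BAQ compounds and vehicle-treated cells, and none of them was chosen for a role in the lysosome. Of these, 8 were picked as higher and PHLDB2 as the lower counterpart. Since the same libraries chose the genes, their differences are given as a description, with standard errors and 95% intervals but without a test. RNA was sequenced from MIA PaCa-2, an established human pancreatic carcinoma cell line, and every value therefore comes from 1 line grown in culture. There were 5 groups of 3 libraries. The control group (labelled Ctrl) received vehicle, and the other groups received Lys05, BAQ12, BAQ13 or BAQ12O. All 4 agents were given at 5 µM for 24 h. Lys05 is a bisaminoquinoline inhibitor of autophagy, and BAQ12 and BAQ13 are bisaminoquinoline derivatives that assemble into nanoparticles and differ from each other by 1 methylene unit. The agent named BAQ12O in the sample labels is named 12O in the design text, and its structure is not given in the sources used here. Nothing in the labels says whether the libraries of a group came from separate cultures, so the spread given is that between libraries.

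Weakly basic amines such as the aminoquinolines become protonated and trapped in acidic lysosomes, which raises the lysosomal pH and impairs degradation. Cells are known to answer lysosomal stress with transcription factors that bind E-box sequences in the promoters of lysosomal and autophagy genes, and the handling of cholesterol, phospholipid and amino acids is tied to the same organelle. The 9 genes are not known as lysosomal genes and belong to unrelated families. They encode a secreted lipase (PLA2G3), a cytokine receptor (IL21R), proteins of redox and sugar metabolism (FAM213A, UAP1L1), transcription factors (CREB3L3, SHOX2), a cytoplasmic protein of the NDRG family (NDRG4), a nuclear envelope linker (SYNE4) and an anchor of microtubules at the cell cortex (PHLDB2).

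The values are normalised counts, obtained by dividing the reads of a gene by the size factor of its library. The reads counted on genes numbered 1586566 to 2500551 per library (median 2230594), and 3 reads corresponded to a normalised count of 2.49 to 4.14. The libraries BAQ12 replicate 3 and BAQ13 replicate 1 stood apart from the rest. On the first principal component, which held 36.0% of the variance of 8320 genes, they scored 42.01 and 24.05, whereas the other libraries scored between -12.58 and 5.04. Their median correlations with the other libraries were 0.937 and 0.967, against 0.976 to 0.982 elsewhere. They resembled each other (r = 0.971) more than BAQ12 replicate 3 resembled its own group (0.927 and 0.937). BAQ13 replicate 1 correlated with its own group at 0.978 and 0.968. Results that rest on these 2 libraries are also given without both of them. Of the markers of the cell type, KRT8, KRT18, KRT19 and VIM had reads in all 15 libraries, while the epithelial genes EPCAM and CDH1 had at most 1 and 5 reads in a library. PTPRC, a leukocyte gene, had at most 6 reads in a library, CD14 had between 1 and 8, and ALB, PECAM1, CD3E and PRSS1 had 0 reads throughout.

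All 9 genes passed the filter on low counts, which kept 10495 genes. PLA2G3 and IL21R passed only through BAQ13, the single group in which all 3 libraries exceeded the cut-off, and SYNE4 passed through BAQ13 and BAQ12O. Their presence among the filtered genes is therefore tied to the group in which they were high. The promoters of 7 of the 9 genes were found in the RefSeq table (GRCh38.p14), in 14 windows of 250 bases before a transcription start, whereas PLA2G3 and UAP1L1 had no entry. NDRG4 and PHLDB2 had 4 windows each, FAM213A had 2 and each other gene had 1, so the windows are not separate genes. Both strands were searched for 4 motifs known from the responses named above. The E-box CACGTG was found in 0 of the 14 windows and in 6.34% of all 35116 windows. The cyclic AMP response element core TGACGT was likewise found in 0 of the 14 windows and in 7.1% of all windows. The composite element TGATGNAA of the stress factor ATF4 was found in 1 window, that of IL21R, and in 3.14% of all windows. The sterol regulatory element TCACNCCAC was found in 1 window, that of SYNE4, and in 0.883% of all windows. Both of these windows are shown 5′ to 3′ on the strand of the gene, with the matching bases in capitals. The match lies 118 to 111 bases before the RefSeq transcript start used for IL21R, which is inside the longer span that GENCODE gives this gene, and 124 to 116 bases before that of SYNE4, where it reads on the opposite strand. By gene, the 4 motifs were present for 7.73%, 8.62%, 3.89% and 1.09% of 27305 genes, in the order given above. At such shares, 0 or 1 match in 14 windows decides nothing. A match describes letters only, and binding was not measured here.
IL21R promoter, chr16:27427021-27427270, plus strand: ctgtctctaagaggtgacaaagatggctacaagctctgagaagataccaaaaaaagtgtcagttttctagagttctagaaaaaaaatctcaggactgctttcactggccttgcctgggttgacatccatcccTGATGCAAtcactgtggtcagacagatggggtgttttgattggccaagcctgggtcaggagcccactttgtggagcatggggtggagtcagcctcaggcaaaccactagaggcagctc
SYNE4 promoter, chr19:36008814-36009063, minus strand: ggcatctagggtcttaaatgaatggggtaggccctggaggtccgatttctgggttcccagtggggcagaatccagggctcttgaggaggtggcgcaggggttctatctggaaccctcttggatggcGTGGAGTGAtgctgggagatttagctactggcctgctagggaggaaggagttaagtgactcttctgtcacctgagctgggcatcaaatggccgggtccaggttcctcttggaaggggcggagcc

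**Figure D1:**
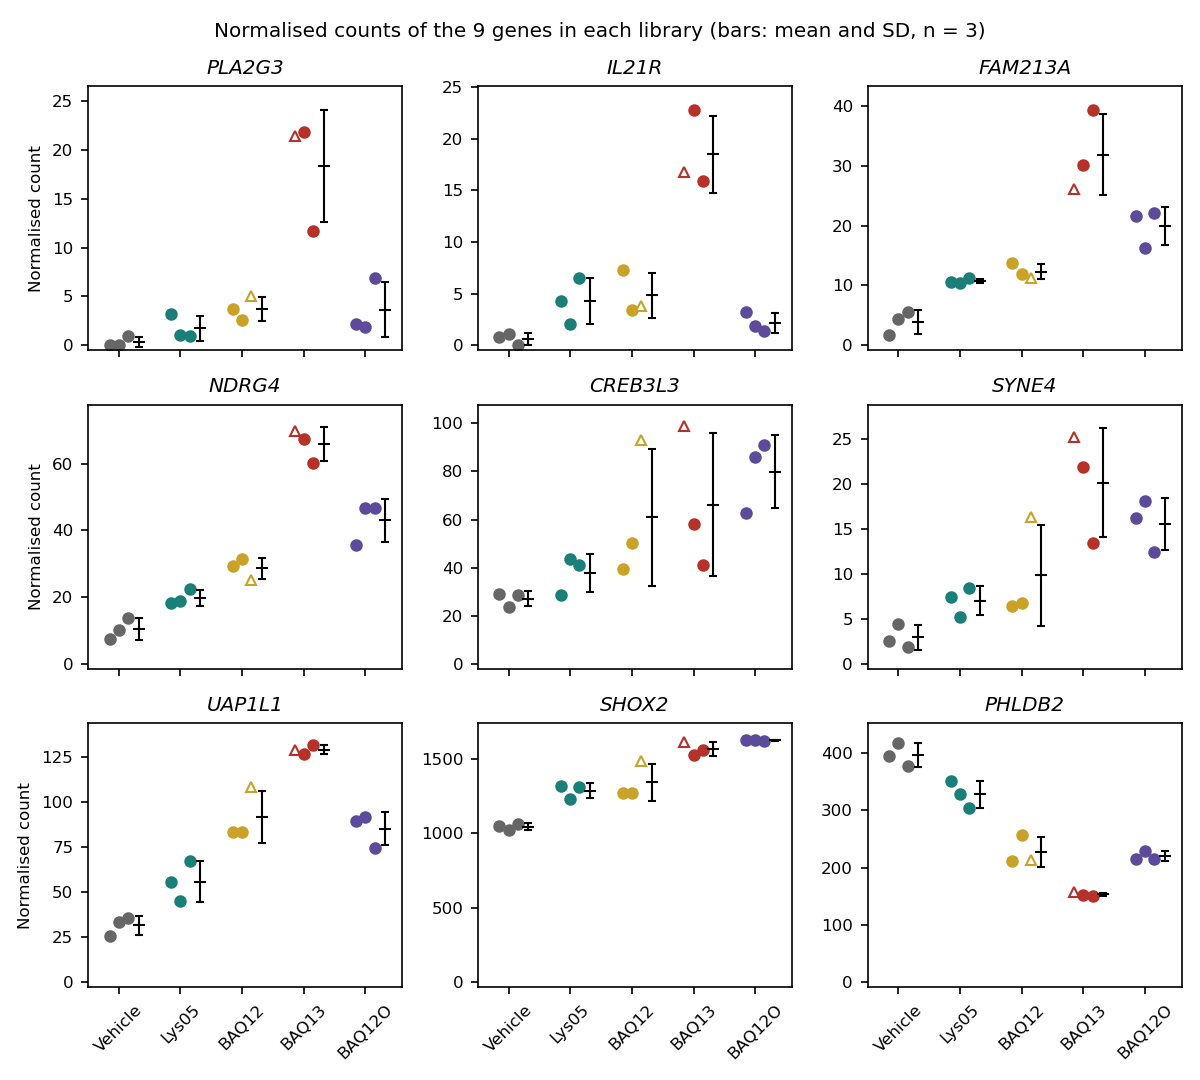
Normalised count (vertical axes, linear, 1 panel per gene) in each of the 15 libraries, grouped by treatment; circles are libraries, open triangles are the 2 libraries that stood apart, and the bars beside them are the mean and SD of 3 libraries. BAQ13 has the highest mean for 6 genes and the lowest for PHLDB2, whereas CREB3L3 and SHOX2 are highest with BAQ12O.

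PLA2G3 and IL21R, the genes that act at the cell surface or outside the cell, were almost without reads in vehicle-treated cells and reached their highest values with BAQ13. PLA2G3 (ENSG00000100078; GRCh38 chr22:31134809-31140607, minus strand) encodes a secreted phospholipase A2, which releases a fatty acid and a lysophospholipid from membrane phospholipid. Its reads in replicates 1, 2 and 3 numbered 0, 0 and 1 with vehicle and 3, 1 and 1 with Lys05. They numbered 4, 3 and 4 with BAQ12, 2, 2 and 5 with BAQ12O, and 23, 24 and 14 with BAQ13. Only the BAQ13 libraries stood clear of all others, and the lowest Lys05 library held 1 read, as did the highest vehicle library. In bulk RNA, fewer cells that express a gene and less RNA per cell cannot be told apart. In normalised counts, PLA2G3 averaged 18.4 ± 5.74 with BAQ13 and 0.31 ± 0.53 with vehicle (SD, n = 3 each). The ratio of the pooled reads, 61 against 1 after scaling for library size, was 57.9 with an exact 95% interval of 10 to 2323 that covers counting error only, so that the size of the induction is poorly bounded. On the log2(normalised count + 1) scale, which understates changes of weakly expressed genes, the difference between BAQ13 and vehicle was 3.91 (standard error 0.51, 95% interval 2.84 to 4.99). It was the largest of the 10495 genes, but PLA2G3 passed the filter only through BAQ13, so nothing is read from this rank.

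IL21R (ENSG00000103522; GRCh38 chr16:27402162-27452042, plus strand) encodes the receptor of interleukin-21, which signals together with the common gamma chain through JAK kinases and STAT3. Its reads numbered 1, 1 and 0 with vehicle, 4, 2 and 7 with Lys05 and 8, 4 and 3 with BAQ12. With BAQ13 they numbered 18, 25 and 19, and with BAQ12O they numbered 3, 2 and 1. The BAQ13 libraries again lay above all others, while Lys05 overlapped both BAQ12 and BAQ12O. IL21R averaged 18.5 ± 3.73 normalised counts with BAQ13 and 0.65 ± 0.58 with vehicle (SD, n = 3 each), which is a pooled ratio of 29.4 (exact 95% interval 7.81 to 248). The difference was 3.62 on the log2 scale (standard error 0.46) and ranked second among the 10495 genes. As with PLA2G3, this rank restates the choice of the gene. With BAQ12O, IL21R averaged 2.17 ± 0.96 (SD, n = 3), and its difference from vehicle of 0.97 (95% interval 0.01 to 1.93) was the smallest of its 4 treatments. Without the libraries that stood apart, this interval was -0.12 to 2.06. The antisense gene IL21R-AS1, which overlaps it, had 0 reads in the 15 libraries.

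FAM213A and UAP1L1, the genes of redox and sugar metabolism, were higher than vehicle in every library of all 4 treatments. FAM213A (ENSG00000122378, now named PRXL2A; GRCh38 chr10:80407829-80437115, plus strand) encodes a peroxiredoxin-like protein. Its normalised counts in replicates 1, 2 and 3 were 1.66, 4.47 and 5.51 with vehicle, 10.6, 10.4 and 11.2 with Lys05, and 13.8, 11.9 and 11.3 with BAQ12. They were 21.6, 16.2 and 22.1 with BAQ12O and 26.1, 30.1 and 39.4 with BAQ13. The 5 groups did not overlap in normalised counts and were ordered vehicle, Lys05, BAQ12, BAQ12O and BAQ13. The nearest libraries of Lys05 and BAQ12 were at 11.2 and 11.3, the latter being BAQ12 replicate 3, which stood apart. In reads, BAQ12 replicate 3 had 9, and the Lys05 libraries had 10, 10 and 12. The share of all genes with 5 groups apart was not computed. The step from Lys05 to BAQ12 was 0.18 on the log2 scale, with an interval of -0.47 to 0.82. FAM213A rested on 12 reads in the vehicle group and 108 with BAQ13, a pooled ratio of 8.54 (exact 95% interval 4.69 to 17.0). Its log2 difference from vehicle was 2.83 (standard error 0.31) with BAQ13 and 2.19 with BAQ12O, the latter being the largest of all genes in that comparison. That rank restates the choice of the gene.

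UAP1L1 (ENSG00000197355; GRCh38 chr9:137077501-137084539, plus strand) is a paralogue of UAP1, the enzyme that makes UDP-N-acetylglucosamine at the end of the hexosamine pathway. Its normalised counts were 25.7, 33.5 and 35.8 with vehicle, 55.4, 44.8 and 67.2 with Lys05, and 83.5, 83.3 and 108.02 with BAQ12. They were 89.5, 91.5 and 74.4 with BAQ12O, and 128.8, 126.7 and 131.6 with BAQ13. The BAQ12 and BAQ12O libraries overlapped, and every other step of the order was free of overlap. UAP1L1 had the narrowest spread of the induced genes with BAQ13, at 129.0 ± 2.46 (SD, n = 3), against 31.7 ± 5.27 (SD, n = 3) with vehicle. The pooled ratio to vehicle was 4.12 (exact 95% interval 3.31 to 5.17) with BAQ13 and 1.79 (1.39 to 2.32) with Lys05.

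NDRG4 and SYNE4 had their lowest means with vehicle, followed in order by Lys05, BAQ12, BAQ12O and BAQ13. NDRG4 (ENSG00000103034; GRCh38 chr16:58462846-58513628, plus strand) encodes a cytoplasmic protein of the N-myc downstream-regulated family that is best known from heart and brain. Its normalised counts were 7.47, 10.05 and 13.8 with vehicle, 18.1, 18.7 and 22.4 with Lys05, and 29.3, 31.5 and 25.1 with BAQ12. They were 35.6, 46.7 and 46.9 with BAQ12O and 69.99, 67.4 and 60.3 with BAQ13. As with FAM213A, the 5 groups did not overlap in normalised counts, and the share of all genes with 5 groups apart was not computed. NDRG4 was chosen on these libraries, so nothing is read from this separation. The log2 difference from vehicle was 0.89 with Lys05, 1.41 with BAQ12, 1.97 with BAQ12O and 2.58 with BAQ13 (standard error 0.21 each), and the pooled ratio with BAQ13 was 6.35 (exact 95% interval 4.39 to 9.46).

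SYNE4 (ENSG00000181392; GRCh38 chr19:36003299-36008793, minus strand) encodes nesprin-4, which links the outer nuclear membrane to kinesin-1. Its normalised counts were 2.49, 4.47 and 1.84 with vehicle and 7.45, 5.21 and 8.40 with Lys05. They were 6.42, 6.80 and 16.3 with BAQ12, 25.2, 21.9 and 13.4 with BAQ13, and 16.2, 18.1 and 12.4 with BAQ12O. Every treated library exceeded every vehicle library, but neighbouring treatments overlapped throughout. Reads in vehicle replicates 1, 2 and 3 numbered 3, 4 and 2, so replicates 1 and 3 lay within the floor of 3 reads. The lowest Lys05 library held 5 reads and the highest vehicle library held 4, so this separation rests on few reads. The pooled ratio to vehicle was 2.51 (exact interval 1.10 to 6.21) with Lys05, from 21 reads against 9. With BAQ13 it was 7.06 (3.51 to 16.1), from 67 reads against 9. The highest BAQ12 and the highest BAQ13 values belonged to the libraries that stood apart. Without these libraries, the log2 difference from vehicle was 1.01 instead of 1.40 with BAQ12 and 2.26 instead of 2.44 with BAQ13. With BAQ12O, for which no library stood apart, it was 2.12 (standard error 0.38).

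CREB3L3 and SHOX2, the transcription factors of the group, were highest with BAQ12O. CREB3L3 (ENSG00000060566; GRCh38 chr19:4153601-4173054, plus strand) encodes a membrane-bound factor, best known from liver and intestine, that is released by proteolysis in the Golgi. Its normalised counts were 29.1, 23.4 and 28.5 with vehicle, 28.7, 43.7 and 41.1 with Lys05, and 39.4, 50.2 and 92.9 with BAQ12. They were 98.9, 58.3 and 41.1 with BAQ13 and 62.5, 85.8 and 91.0 with BAQ12O. In normalised counts, CREB3L3 was the only one of the 9 genes for which Lys05 overlapped vehicle. PLA2G3 was apart by library size alone, with 1 read in each of its nearest libraries. For CREB3L3, all neighbouring treatments overlapped. The difference between Lys05 and vehicle was 0.46 (-0.19 to 1.10), and its interval was 0.08 to 0.83 without the libraries that stood apart. Its values of 92.9 and 98.9 came from BAQ12 replicate 3 and BAQ13 replicate 1, the libraries with the highest scores on the first principal component. The part of those libraries in the result was not tested further. Without them, the log2 difference from vehicle was 0.71 instead of 1.06 with BAQ12 and 0.84 instead of 1.18 with BAQ13. With BAQ12O the difference was 1.52 either way, with a standard error of 0.31 with all libraries and 0.19 without those libraries. MIA PaCa-2 is not a liver line, and of the hepatocyte marker genes, ALB and TTR had 0 reads in all libraries and APOA1 had 3 reads in all.

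**Figure D2:**
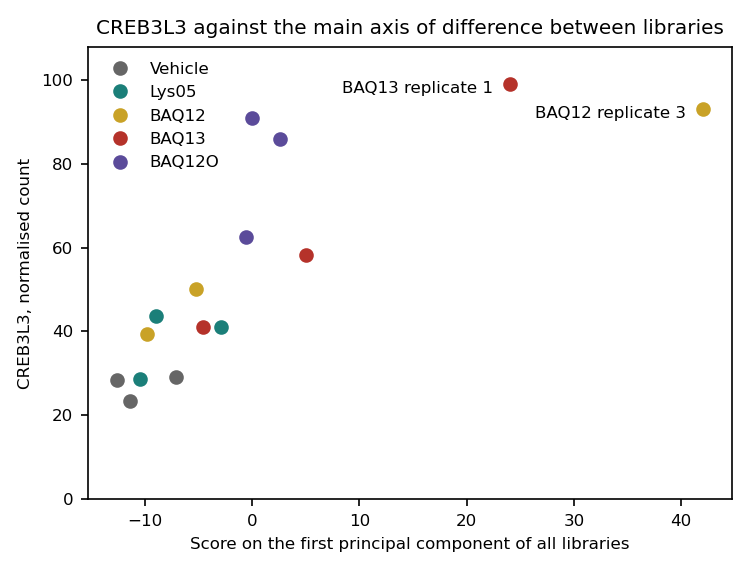
Normalised count of CREB3L3 (vertical axis, linear, from 0) against the score of each library on the first principal component (horizontal axis, no unit), 1 point per library and coloured by treatment. The libraries at scores of 24.05 and 42.01, 1 of BAQ13 and 1 of BAQ12, hold the highest values of CREB3L3, and the BAQ12O libraries reach 62.5 to 91.0 at scores near 0.

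SHOX2 (ENSG00000168779; GRCh38 chr3:158095954-158106503, minus strand) encodes a homeobox factor of limb and sinoatrial node development. Unlike the other genes picked as higher, it was abundant in vehicle-treated cells, at 1049, 1021 and 1063 normalised counts. The counts were 1317, 1226 and 1309 with Lys05, 1271, 1267 and 1481 with BAQ12, 1613, 1522 and 1557 with BAQ13, and 1624, 1623 and 1617 with BAQ12O. All treated libraries exceeded all vehicle libraries, and BAQ12O exceeded BAQ13 without overlap, although the difference of -0.05 between BAQ13 and BAQ12O had an interval of -0.20 to 0.10. The changes were small, with pooled ratios to vehicle of 1.23, 1.27, 1.495 and 1.55 for Lys05, BAQ12, BAQ13 and BAQ12O. With BAQ13 its log2 difference of 0.58 (standard error 0.07) ranked 609 of 10495, so that SHOX2 was not strongly induced by size. SHOX2 overlaps RSRC1 on the opposite strand, and whether the counting used strand is not given in the sources used here, so reads of these genes may not be fully separated. RSRC1 had 943.2 ± 18.7 (SD, n = 3) normalised counts with BAQ13 and 813.2 ± 34.9 with vehicle, a log2 difference of 0.21 (adjusted p = 0.11 by limma).

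PHLDB2 moved in the opposite direction. PHLDB2 (ENSG00000144824; GRCh38 chr3:111732497-111976517, plus strand) encodes a phosphoinositide-binding protein, also called LL5β, that anchors microtubule ends near focal adhesions. Its normalised counts were 395.2, 417.6 and 377.3 with vehicle, 351.4, 329.1 and 303.4 with Lys05, and 211.9, 257.6 and 213.5 with BAQ12. They were 214.5, 229.8 and 215.1 with BAQ12O and 156.8, 153.1 and 150.02 with BAQ13. All treated libraries lay below all vehicle libraries, BAQ12 and BAQ12O overlapped, and BAQ13 lay below every other library. The pooled ratio to vehicle was 0.83 (exact 95% interval 0.76 to 0.90) with Lys05, 0.58 (0.53 to 0.64) with BAQ12, 0.56 (0.51 to 0.62) with BAQ12O and 0.39 (0.35 to 0.43) with BAQ13. On the log2 scale PHLDB2 fell by 1.36 with BAQ13 (standard error 0.10), and 22 of the 10495 genes fell further. The BAQ13 libraries spanned only 150.02 to 156.8, and the library that stood apart was among them.

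**Figure D3:**
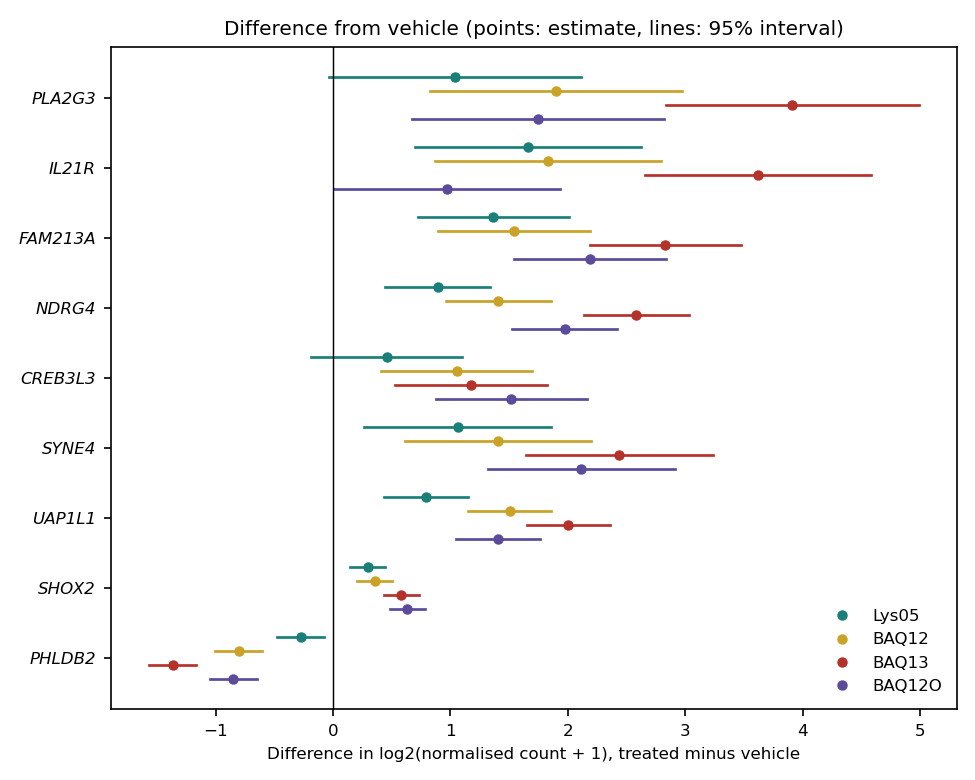
Difference from vehicle in log2(normalised count + 1) (horizontal axis) for each gene and each of the 4 treatments; points are the estimates and lines their 95% intervals from 3 libraries a group. BAQ13 lies farthest from 0 for 7 of the 9 genes, and the intervals of the weakly expressed PLA2G3 and IL21R are the widest.

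Across the 9 genes, the median log2 difference from vehicle of the 8 higher genes was 0.96 with Lys05, 1.46 with BAQ12, 1.63 with BAQ12O and 2.51 with BAQ13. With BAQ13, all 8 had every library above every vehicle library and PHLDB2 had every library below, where 14.5% of all genes tested lay wholly above and 14.4% wholly below. With BAQ12, the counts were the same, against 7.75% above and 7.61% below. With BAQ12O, they were again 8 above and 1 below, against 12.5% and 13.3%. Among these 8, IL21R was apart by library size alone, with 1 read in its lowest BAQ12O library and 1 in its highest vehicle library. Its pooled ratio of BAQ12O to vehicle was 3.54, with an exact 95% interval of 0.63 to 35.9. With Lys05, 7 lay above, PHLDB2 lay below and CREB3L3 overlapped, against 8.24% and 7.37%. Among the 7, PLA2G3 held 1 read in its lowest Lys05 library and 1 in its highest vehicle library. Its log2 difference between Lys05 and vehicle was 1.04, with a 95% interval of -0.04 to 2.11. Since the genes were selected on these comparisons with the BAQ compounds, the medians and the counts restate the choice. Nothing is read from them or from the order of the medians.

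The BAQ compounds and Lys05 were compared with each other at the same dose and time, in 6 pairs. The intervals are not adjusted for the number of genes or pairs, and the genes had been chosen in part for their values with BAQ13. Nothing is therefore read from the counts of genes beside the shares of all genes. The 95% interval of BAQ13 minus BAQ12 lay above 0 for 7 genes, against 4.9% of all genes, and below 0 for PHLDB2, against 3.37%. The difference was 2.01 (95% interval 0.94 to 3.09) for PLA2G3, 1.79 (0.82 to 2.75) for IL21R, 1.29 (0.64 to 1.93) for FAM213A and 1.18 (0.73 to 1.63) for NDRG4. SYNE4 differed by 1.04 (0.24 to 1.83), UAP1L1 by 0.50 (0.15 to 0.86) and SHOX2 by 0.23 (0.08 to 0.38). PHLDB2 differed by -0.56 (-0.76 to -0.36). CREB3L3 was the exception, with a difference of 0.12 and an interval of -0.52 to 0.76 that leaves room for a change in either direction. Without the libraries that stood apart, the same intervals excluded 0, and that of CREB3L3 was -0.32 to 0.59.

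BAQ12O was compared with both of these compounds. The interval of BAQ12O minus BAQ12 lay above 0 for NDRG4 (0.57, 0.12 to 1.01) and SHOX2 (0.28, 0.13 to 0.43), against 4.65% of all genes, lay below 0 for none, against 3.73%, and spanned 0 for the other 7. Among these, the difference was -0.15 (-1.23 to 0.92) for PLA2G3, -0.86 (-1.82 to 0.10) for IL21R and -0.05 (-0.25 to 0.16) for PHLDB2. Without the libraries that stood apart, CREB3L3 (0.81, 0.39 to 1.23) and SYNE4 (1.11, 0.25 to 1.96) were also higher with BAQ12O than with BAQ12, and the interval of NDRG4 reached 0 (0.48, -0.03 to 0.99). The interval of BAQ13 minus BAQ12O lay above 0 for 4 genes, against 5.69% of all genes. They were PLA2G3 (2.17, 1.09 to 3.24), IL21R (2.64, 1.68 to 3.61), NDRG4 (0.61, 0.16 to 1.06) and UAP1L1 (0.60, 0.24 to 0.95). It lay below 0 for PHLDB2 (-0.52, -0.72 to -0.32), against 5.56%, and spanned 0 for FAM213A, CREB3L3, SYNE4 and SHOX2. Of all 10495 genes, IL21R had the largest difference between BAQ13 and BAQ12O. IL21R passed the filter only through BAQ13, so nothing is read from this rank. Without the libraries that stood apart, the interval of FAM213A also excluded 0 (0.77, 0.04 to 1.5), and CREB3L3 was lower with BAQ13 than with BAQ12O (-0.67, -1.09 to -0.26).

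**Figure D4:**
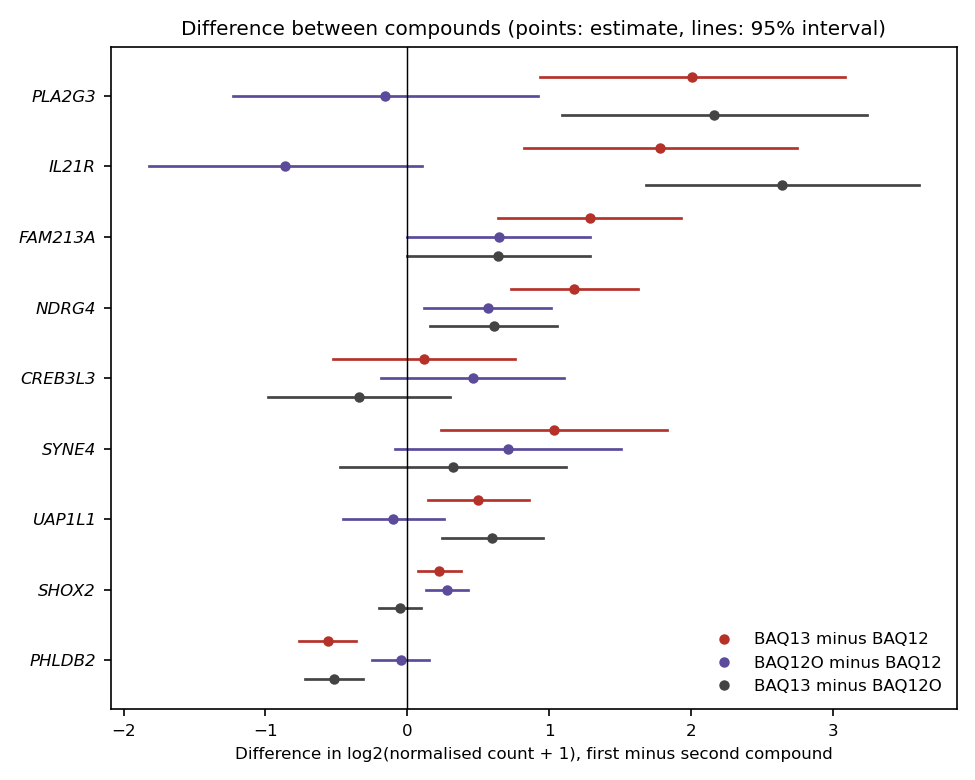
Difference between pairs of BAQ compounds in log2(normalised count + 1) (horizontal axis) for each of the 9 genes; points are the estimates and lines their 95% intervals from 3 libraries a group. PLA2G3 and IL21R differ most between BAQ13 and the other compounds, at 1.79 to 2.64, and the intervals of CREB3L3 span 0 in all 3 pairs.

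The genes were chosen for their values with the BAQ compounds, so the counts against Lys05 restate that choice in part. Nothing is read from them beside the shares of all genes. Against Lys05, the interval of BAQ13 excluded 0 for all 9 genes, 8 above (7.85% of all genes) and PHLDB2 below (6.75%). Without the libraries that stood apart, that of CREB3L3 spanned 0 (0.38, -0.03 to 0.80). The differences ranged from 0.29 for SHOX2 to 2.88 for PLA2G3, and that of PHLDB2 was -1.09. For BAQ12O minus Lys05, the interval lay above 0 for 6 genes (4.14% of all genes) and below 0 for PHLDB2 (3.21%). PLA2G3 (0.71, -0.36 to 1.78) and IL21R (-0.69, -1.65 to 0.27) spanned 0. For BAQ12 minus Lys05, it lay above 0 only for UAP1L1 (0.71, 0.36 to 1.07) and NDRG4 (0.51, 0.07 to 0.96), against 3.69% of all genes, and below 0 for PHLDB2 (-0.53, -0.73 to -0.33), against 3.48%. For the other 6 genes, among them IL21R (0.17, -0.79 to 1.13) and SHOX2 (0.06, -0.09 to 0.21), the interval spanned 0.

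As the genes were picked for shared directions in these libraries, the signs of their correlations follow from the choice, and only their sizes are described. Over the 15 libraries, which share their treatments and their size factors, Pearson's r between the log2 values of the 28 pairs of the 8 higher genes ranged from 0.33 to 0.96, with a median of 0.83. The lowest was between IL21R and CREB3L3 and the highest between FAM213A and NDRG4. PHLDB2 correlated negatively with all 8, at -0.94 to -0.71. Of all genes tested, the most similar to PLA2G3 was OPTN, which encodes the autophagy receptor optineurin (r = 0.96), and the most similar to IL21R was the zinc transporter gene SLC30A3 (0.94). FAM213A and NDRG4 had each other as their closest gene, followed by CREBRF in both. For UAP1L1 the closest was SLC17A5, the lysosomal sialic acid transporter (0.96). For SYNE4 it was PGPEP1 (0.95), for CREB3L3 the inositol phosphate synthase gene ISYNA1 (0.96), for SHOX2 the long non-coding RNA NEAT1 (0.95), and for PHLDB2 it was CRIM1 (0.97). Without the libraries that stood apart, r with these closest genes ranged from 0.93 for IL21R to 0.98 for SHOX2. Outside BAQ13, PLA2G3 had at most 5 reads and IL21R at most 8 reads in a library, which limits what their r can show. These values describe likeness over the libraries and carry no test.

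Family and pathway genes of the 9 were then examined, in 9 lists that held 93 genes, of which 57 had enough reads to be tested. Their median log2 difference from vehicle was 0.02, 0.02, 0.04 and 0.05 for Lys05, BAQ12, BAQ13 and BAQ12O, but single genes lay on both sides of 0. With BAQ13 they ranged from -0.83 for PRDX3 to 0.98 for KLC2, neither of which was called, and 17.5% of the 57 had an unadjusted p-value under 0.05 in limma, against 19.4% of all genes. With BAQ13, 2 of the 57 were called at an adjusted p-value under 0.05 in limma, both lower (3.51%, against 5.77% of all genes). UAP1, the paralogue of UAP1L1, fell from 423.4 ± 42.7 to 243.6 ± 25.9 normalised counts (SD, n = 3 each), a log2 difference of -0.80 (standard error 0.15, adjusted p = 0.004 by limma). PRDX6, a peroxiredoxin with phospholipase activity, fell from 1285 ± 48.9 to 1041 ± 12.2 (SD, n = 3 each), a difference of -0.30 (standard error 0.07, adjusted p = 0.013 by limma). UAP1 thus fell in the libraries in which UAP1L1 was high. With BAQ12O, 1 of the 57 was called (1.75%, against 1.48% of all genes). It was MACF1, a linker of microtubules and actin in the list of PHLDB2, at 308.3 ± 6.48 against 235.9 ± 2.06 (SD, n = 3 each), a difference of 0.38 (standard error 0.09, adjusted p = 0.033 by limma). This call was lost when any 1 of the vehicle or BAQ12O libraries, or BAQ13 replicate 2, was left out, and its adjusted p-value in limma, edgeR or DESeq2 reached up to 0.14 over the alternatives.

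No gene of the lists was called with Lys05 or BAQ12 by limma, edgeR or DESeq2. At an unadjusted p-value under 0.05 in limma, there were 2 with Lys05 and 6 with BAQ12 of the 57 (3.51% and 10.5%, against 4.98% and 11.8% of all genes), where 0.238% and 0.981% of all genes passed the adjusted threshold. UAP1 had a log2 difference of -0.54 with BAQ12 (adjusted p = 0.15 by limma) and of -0.56 with BAQ12O (adjusted p = 0.088 by limma). Without the libraries that stood apart, 7 genes were called with BAQ13 (higher PRDX5, AMDHD2 and STAT3, lower UAP1, PRDX6, SUN1 and PRDX3) and 6 with BAQ12O (higher MACF1 and TLN1, lower UAP1, PRDX6, PRDX4 and PRDX3), where 11.8% and 9.13% of all genes were called.

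By family, the nearest tested relatives of the 9 genes did not pass the test in any of the 4 comparisons with all libraries, with the exception of UAP1. In the list of PLA2G3, 2 of 10 secreted phospholipase genes and their receptor were tested, and PLA2G12A had a log2 difference of 0.02 with BAQ13 (standard error 0.23). In the list of IL21R, 6 of 16 genes were tested. The gene of its ligand, IL21, and those of its partner chain IL2RG and of IL2RA, IL2RB and IL9R had 0 reads in all libraries, which limits each to at most 3 reads per library, or 2.49 to 4.14 normalised counts. The receptor gene IL4R had a difference of -0.35 with BAQ13 (standard error 0.22), and JAK1 one of 0.08 (standard error 0.11). STAT3 had a difference of 0.41 (standard error 0.18, adjusted p = 0.21 by limma). IL21R reads therefore appeared in cells without detectable reads of its partner chain.

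Of the 8 peroxiredoxin and peroxiredoxin-like genes in the list of FAM213A, all were tested, and FAM213B had a log2 difference of 0.17 with BAQ13 (standard error 0.17). The 3 relatives NDRG1, NDRG2 and NDRG3 had differences of 0.48, -0.02 and 0.05, with standard errors of 0.27, 0.16 and 0.17. In the list of CREB3L3, 8 of 14 were tested and none was called, with CREB3, CREB3L1, CREB3L2 and CREB3L4 at 0.25, -0.16, 0.25 and 0.37 with BAQ13. Several genes known as targets of CREB3L3 in liver, namely APOA4, APOA5, APOC2 and HAMP, had 0 reads, and FGF21 and CIDEC had at most 1 read in a library. Another known target, INSIG2, was tested and had a log2 difference of 0.07 with BAQ13 (standard error 0.21). In the list of SYNE4, 9 of 13 genes of the LINC complex and kinesin-1 were tested, and SYNE2 had a difference of -0.13 (standard error 0.15) with BAQ13. In the list of SHOX2, only 1 of 7 genes was tested, and its relative SHOX had 0 reads. In the list of PHLDB2, 11 of 12 genes of cortical microtubule anchoring were tested, with PHLDB1 at 0.03 (standard error 0.18) and PHLDB3 at 0.12 (standard error 0.31) with BAQ13.

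**Figure D5:**
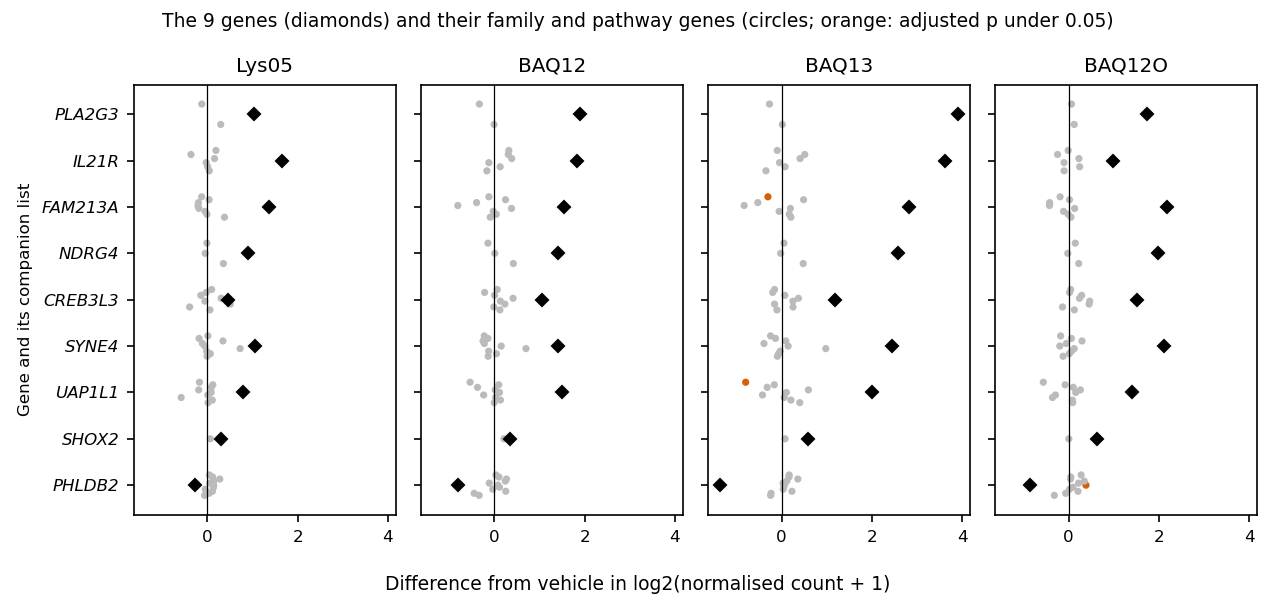
Difference from vehicle in log2(normalised count + 1) (horizontal axis) in each treatment (panels), with 1 line per gene; diamonds are the 9 genes and circles the tested genes of their family or pathway list, in orange where the adjusted p-value in limma was under 0.05. The circles lie on both sides of 0, with medians of 0.02 to 0.05 and a range of -0.83 to 0.98 with BAQ13, and 3 of them are orange, PRDX6 and UAP1 with BAQ13 and MACF1 with BAQ12O.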

How the data were processed

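Gene expression in MIA PaCa-2 cells was compared between 5 groups of 3 libraries, and the sample labels gave the groups and replicate numbers. The authors deposited, for each gene and library, 1 normalised expression signal. The labels' processing notes name STAR, HTSeq, DESeq2 and GRCh38 without versions. The library kit is a directional paired-end one in the methods and a 3′-end one in the labels. Of the non-zero deposited signal values, 100% were whole multiples of the lowest value in the same library (tolerance 0.01 reads), and the whole reads were recovered from that step. Values of 3 reads or fewer were regarded as the floor, and exact intervals of pooled reads cover counting error only. The 92 spike-in identifiers had 0 reads. Coordinates came from GENCODE release 29, in which 56531 of the 60107 identifiers were found.

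The members and lists were chosen with earlier results of these data known. Differences were estimated with limma (eBayes with a variance trend) on log2(value + 1) over all 15 libraries, after filterByExpr of edgeR on the recovered reads (minimum count 10, minimum total 15), and p-values were adjusted by the Benjamini-Hochberg method over 10495 genes. A count model had been the plan for raw counts, and limma was used because the deposited values are normalised. Lists covered the family or pathway of each gene (secreted phospholipases, common gamma chain receptors, peroxiredoxins, the NDRG family, the CREB3 family, the LINC complex, the hexosamine pathway, SHOX and patterning factors, and cortical microtubule anchoring). Genes named are the 9, the called genes of the lists and the nearest relative of each of the 9, and the most correlated genes. Genes at the extremes of a list or with few or 0 reads, INSIG2 and those called only without the 2 libraries that stood apart were named after their values were seen.

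Alternatives were TMM factors, other filters and pseudocounts, fits of only the compared libraries, the replicate number as a block, leaving out each library, and DESeq2 and the quasi-likelihood test of edgeR on recovered reads. Leaving out BAQ12 replicate 3 and BAQ13 replicate 1 together was added after seeing the data. Replicate pairs differed by more than sampling noise in a chi-square test of their counts. limma was tested on simulated data for BAQ13 against vehicle (10365 genes, 200 changed), where it recovered 73% of the 2-fold and 98% of the 4-fold changes with 3 false calls among 174. The simulated counts were drawn independently and held no library that stood apart, so these rates need not hold for the real libraries. Models were run in DESeq2 1.42.0, edgeR 4.0.16 and limma 3.58.1 under R 4.3.3. Tables and plots were made with matplotlib 3.10.9, pandas 2.3.3 and numpy 2.4.6 under Python 3.11.15.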

Additional observations from a re-analysis of the deposited data

How the results depend on the processing

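No difference from vehicle changed sign under any of the 25 alternatives that gave a value for it. The size of the weakly expressed genes depended on the scale. The BAQ13 difference ranged from 2.11 to 6.36 for PLA2G3 and from 2.05 to 5.25 for IL21R, the lowest and highest values coming from the pseudocounts of 5 and 0.1. Of 872 values from vehicle comparisons, 48 moved by more than the spread between replicates, and of 1313 between treatments, 12 did. Between treatments, 7 differences changed sign in 1 to 4 alternatives, and the intervals of all 7 spanned 0 with all libraries. They were CREB3L3 in BAQ13 minus BAQ12 (-0.21 to 0.47), PLA2G3 (-0.62 to 0.11), UAP1L1 (-0.16 to 0.02) and PHLDB2 (-0.09 to 0.05) in BAQ12O minus BAQ12, and IL21R (-0.17 to 0.47), SYNE4 (-0.05 to 0.56) and SHOX2 (-0.02 to 0.10) in BAQ12 minus Lys05.

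Genes of the lists called with BAQ13 numbered 2, and 6 with only the libraries compared, 7 without the 2 libraries that stood apart, and 1 (without Ctrl replicate 3) to 10 (without BAQ12 replicate 3) when a library was left out. With BAQ12O they numbered 1, and 2 with DESeq2, 0 without a filter, 6 with only the libraries compared, 6 without the 2 libraries, and 0 to 2 when a library was left out (0 without each Ctrl, each BAQ12O and BAQ13 replicate 2, and 2 without BAQ12 replicate 3). With Lys05 and BAQ12 they stayed at 0 throughout. UAP1 with BAQ13 was called in 25 of 25 alternatives, PRDX6 in 23 (not without Ctrl replicate 3 or BAQ13 replicate 1) and MACF1 with BAQ12O in 16. Over all genes, the calls for Lys05, BAQ12, BAQ13 and BAQ12O numbered 25, 103, 606 and 155, with only the libraries compared 114, 31, 938 and 881, 19 to 51, 55 to 137, 320 to 1436 and 74 to 526 when a library was left out (each highest without BAQ12 replicate 3), and without the 2 libraries 96, 222, 1252 and 970. The fit over all groups used a shared estimate of the spread. For UAP1 with BAQ12O, the log2 difference was -0.56 with all libraries and without the 2 libraries. Its standard error was 0.15 with all libraries and 0.08 without them. The causes of these changes in the counts were not tested.

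Deviations of same-numbered libraries of a treatment and of vehicle correlated at r of -0.13 to 0.11, so no pairing of treatments with vehicle was seen. Treatments were not compared with each other in this way, so a batch shared between them was not checked. With the replicate number as a block, 0 companion genes were called with BAQ12O (MACF1 adjusted p = 0.062 by limma) and 2 with BAQ13.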
